A study of Homo sapiens with 14 samples.

Results

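The basement membrane is the thin sheet of extracellular matrix on which epithelia rest. Collagen IV trimers and laminin trimers form separate networks in it, nidogen and perlecan join them, and integrins and dystroglycan hold cells to it. In the early embryo this sheet underlies the epiblast, is crossed by cells that leave the primitive streak and is rebuilt under the gut epithelium and around the notochord. The 10 genes described here were taken as a list of names, with no threshold on a measured value. The list was chosen with earlier results of these data known, so the shares of all genes printed beside its counts describe it and test nothing. They are the collagen IV chains COL4A1, COL4A2, COL4A5 and COL4A6, the laminin chains LAMA1, LAMA5, LAMB1 and LAMC1, and the linkers NID1 (nidogen-1) and HSPG2 (perlecan). All 10 of the 10 were found among the 63677 gene identifiers of the bulk tables, passed the filter on low counts in every comparison, and were found among the 17493 genes of the gastruloid table.

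The series holds 14 samples of H9, a human embryonic stem cell (hESC) line: 12 bulk RNA-seq libraries, and the RNA and open-chromatin (ATAC) parts of 1 multiome preparation of gastruloids. The bulk libraries are 2 of hESC, 3 of control endoderm that carried dCAS9-KRAB with no single guide RNA, 3 of endoderm with dCAS9-KRAB and a guide RNA against LTR5 (LTR5 CRISPRi), 2 titled as control foregut and 2 titled as CRISPRi foregut. dCAS9-KRAB is a Cas9 that binds DNA without cutting it and carries a repressor domain, and LTR5 is the long terminal repeat family of the HERV-K retrovirus. Endoderm was made with Activin and the WNT agonist CHIR over 3 days. Foregut was made by a commercial pancreatic protocol, with 3 days toward endoderm and 3 further days toward foregut. The methods do not say whether its endoderm stage was that of the endoderm libraries. In foregut against endoderm, protocol and tissue therefore cannot be told apart. Gastruloids are aggregates of hESC that had been exposed to CHIR. They were formed with 3 µM CHIR and 10 µM Rock inhibitor, which were then removed, and were harvested at 72 h. The labels do not say whether the hESC libraries carried dCAS9-KRAB, and the status field of the foregut libraries repeats an hESC or endoderm entry, so those 4 libraries are named here by their titles. The dCAS9-KRAB cells are not described as single clones. The study states that its RNA-seq replicates are biologically independent, while the labels do not say which cultures the libraries came from. hESC were grown on Matrigel, itself a basement membrane extract, and the plates used for endoderm were coated with it too.

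Depth ranged from 11583063 to 37152434 reads in genes per bulk library, and the mitochondrial share of those reads moved with the tissue. It was 16.9% to 25.5% in hESC, 8.30% to 14.4% in control endoderm, 9.16% to 13.3% in CRISPRi endoderm, 17.6% to 29.0% in control foregut and 22.4% to 34.7% in CRISPRi foregut, and its part in the tissue differences below was not tested. The labels were checked against marker genes summed as CPM, counts scaled to the library total. Definitive endoderm markers summed to 29.2 to 43.5 CPM in hESC, 5518 to 6049 in control endoderm and 794 to 965 in control foregut. The hESC markers summed to 1901 to 2690 CPM in hESC and 1898 to 2556 in control endoderm, so their sum did not fall with endoderm differentiation, while 4 of the 8 genes were called lower and 1, TDGF1, higher. The 7 foregut markers found summed to 736 to 943 CPM in control foregut against 171 to 196 in control endoderm.

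COL4A1 and COL4A2 encode the most widespread collagen IV chains, which join in one trimer, and their genes lie head to head on chromosome 13. In GRCh37, COL4A1 (ENSG00000187498) spans bases 110801310 to 110959504 on the minus strand in 52 exons, and COL4A2 (ENSG00000134871) spans 110958159 to 111165556 on the plus strand in 48 exons. These annotated spans overlap at the shared end, and since the strand setting of the counting is not given in the sources used here, reads in that overlap cannot be assigned to one gene. In RefSeq on GRCh38.p14 the main starts are separated by 126 bases, at chr13:110307158-110307283. That stretch is printed on the plus strand because both genes are transcribed away from it, to opposite sides. Capitals mark a CCAAT box (CCAAT, bases 22 to 26 of the stretch) and a GC box (GGGCGG, bases 62 to 67), the only matches to these letters on either strand.

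COL4A1 to COL4A2: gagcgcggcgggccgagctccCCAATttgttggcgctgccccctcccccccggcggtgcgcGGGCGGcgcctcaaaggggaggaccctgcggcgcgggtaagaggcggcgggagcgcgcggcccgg

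The stretch was 80.2% G and C, and 1 gastruloid ATAC peak 905 bases wide covered it. COL4A5 and COL4A6, the chains found with each other in some basement membranes, form a second head-to-head pair on the X chromosome. COL4A5 (ENSG00000188153) spans 107683068 to 107940775 on the plus strand of GRCh37 in 53 exons, and COL4A6 (ENSG00000197565) spans 107398837 to 107682727 on the minus strand in 45 exons. In RefSeq the COL4A5 start lay 379 bases from the nearer of 2 COL4A6 starts and 1415 bases from the other.

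RefSeq promoter windows were matched for 9 of the 10 genes, LAMA1 being the gene with none. The 250 bases before the start are printed for 3 of them on the strand of the gene: COL4A5, as a collagen promoter without a GC box; HSPG2, as the gene with the largest foregut difference below; and LAMC1, as the gene that differs most between gastruloid clusters. They lie at chrX:108439588-108439837 (plus strand), chr1:21937311-21937560 (minus strand) and chr1:183023170-183023419 (plus strand) of GRCh38.p14. Capitals mark GC boxes (GGGCGG, or CCGCCC for the other strand, overlaps included) and CCAAT boxes (CCAAT, or ATTGG).

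COL4A5: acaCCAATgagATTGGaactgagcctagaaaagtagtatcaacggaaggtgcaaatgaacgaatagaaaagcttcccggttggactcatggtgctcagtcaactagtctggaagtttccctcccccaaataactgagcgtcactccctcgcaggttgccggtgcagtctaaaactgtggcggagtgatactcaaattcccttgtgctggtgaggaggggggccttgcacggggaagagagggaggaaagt
HSPG2: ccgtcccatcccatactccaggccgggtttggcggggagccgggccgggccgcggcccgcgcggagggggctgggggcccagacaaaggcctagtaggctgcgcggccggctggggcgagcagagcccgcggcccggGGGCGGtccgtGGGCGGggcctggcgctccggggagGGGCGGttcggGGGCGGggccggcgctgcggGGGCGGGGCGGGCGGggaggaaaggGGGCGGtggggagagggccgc
LAMC1: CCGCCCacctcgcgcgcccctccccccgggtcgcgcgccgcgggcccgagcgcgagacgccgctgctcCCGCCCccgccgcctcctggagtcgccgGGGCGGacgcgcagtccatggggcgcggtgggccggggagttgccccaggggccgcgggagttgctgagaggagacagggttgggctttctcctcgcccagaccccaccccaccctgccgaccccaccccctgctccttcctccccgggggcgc

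The window of HSPG2 held 8 GC boxes, that of LAMA5 5, that of LAMB1 4, that of LAMC1 3 and that of COL4A5 none. COL4A5 held 2 CCAAT boxes, and these are the same bases as 2 of the 3 CCAAT boxes before the nearer COL4A6 start. Among 35116 RefSeq promoters of the same length, 42.6% held a GC box and 32.0% a CCAAT box. Other motifs were searched for on both strands. The TATA box, spelled TATAAA, occurred in 10.7% of all promoters. The forkhead core of the FOXA factors, searched as TGTTTAC, occurred in 2.98%, the core of the GATA factors, searched as AGATAA, in 9.17%, and the core of the T-box factors, searched as GGTGTGA, in 2.76%. None of these was in any of the 10 windows. The core of the SOX factors, searched as ACAAAG, occurred in 13.7% of all promoters and in 1 of the 10 windows, that of HSPG2. A gastruloid ATAC peak overlapped each of the 10 windows, against 57.8% of all promoters. The windows of COL4A1 and COL4A2 share 1 peak, as do those of COL4A5 and the nearer COL4A6 start, so the windows are not independent. These peaks are 1 set for the whole preparation, so they say nothing of differences between cell types.

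**Figure D1:**
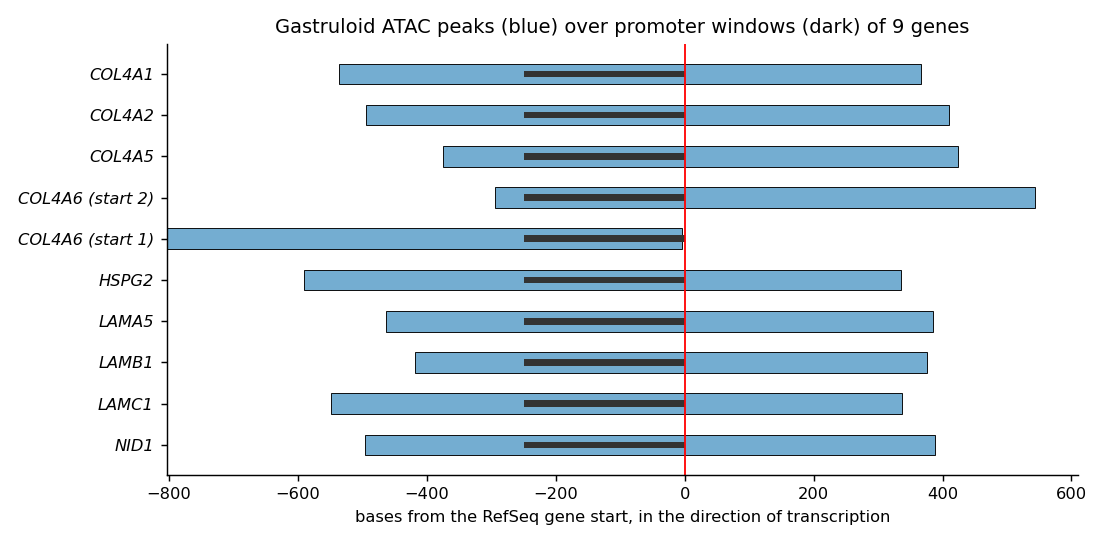
ATAC peaks of the gastruloid preparation around the starts of the 9 genes with a RefSeq promoter, plotted as distance in bases from each gene start along the direction of transcription. A blue bar stands for 1 called peak and a dark bar for the 250 bases before the start, which a peak overlaps in each case. A peak shared by head-to-head starts is drawn again for each start.

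In hESC the 10 genes were already transcribed. Per kilobase of canonical transcript, the only scale on which genes are compared here, the highest mean levels were 20.2 ± 0.8 CPM per kb for COL4A2 and 20.2 ± 0.8 for LAMC1 (SD, n = 2), followed by LAMB1 at 19.1 ± 0.5. These leading genes lay within each other's spread. LAMA1 at 12.99 ± 0.4 and COL4A1 at 12.8 ± 0.05 CPM per kb came next and did not differ beyond their spread. COL4A6 (5.46), COL4A5 (4.50), HSPG2 (3.64), NID1 (2.64) and LAMA5 (2.36) were lowest. By their SDs COL4A5 overlapped COL4A6 and HSPG2, and LAMA5 overlapped NID1. The order thus put the chains of laminin-111 (LAMA1, LAMB1, LAMC1) and the collagen IV pair COL4A1 and COL4A2 above the linkers and above LAMA5, the alpha chain of laminin-511. COL4A3 and COL4A4, the remaining collagen IV chains, were at 0 to 2.16 CPM in hESC and at most 0.32 CPM in control endoderm.

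**Figure D2:**
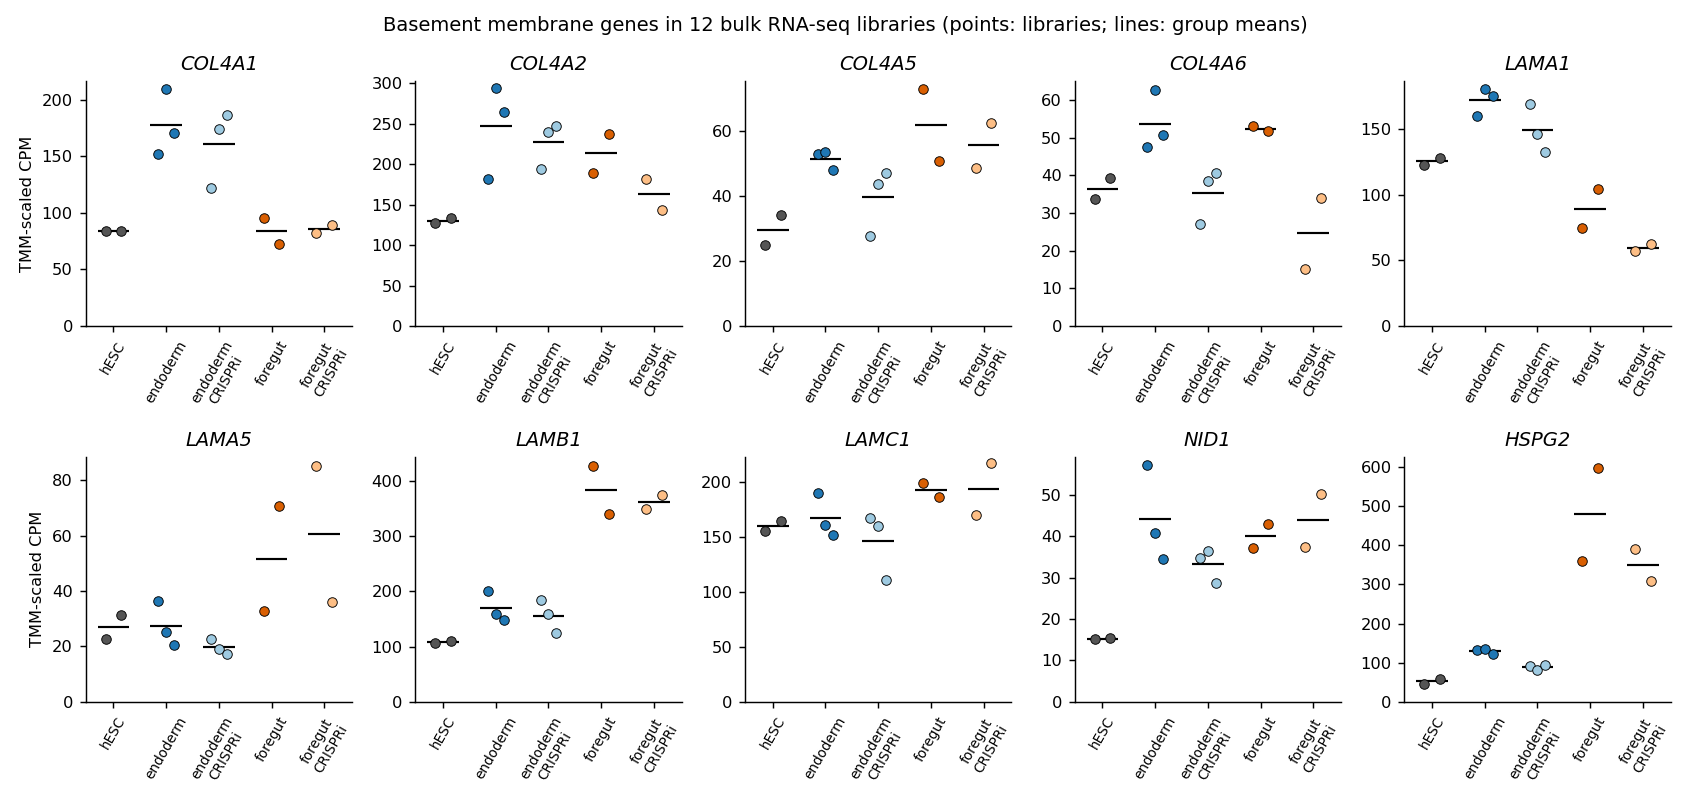
TMM-scaled CPM of each of the 10 genes in every bulk library, on linear axes from 0, by group. Points are libraries and horizontal lines group means. HSPG2 and LAMB1 sit highest in the 4 foregut libraries, and COL4A1 sits highest in the 6 endoderm libraries.

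The first comparison asked which of these genes changed as hESC became endoderm. NID1, HSPG2 and COL4A1 rose by more than 2-fold, the other collagen IV chains, LAMB1 and LAMA1 were higher by less than 2-fold, and LAMC1 and LAMA5 showed no detectable difference. By the call used throughout (edgeR quasi-likelihood test, Benjamini-Hochberg adjusted p under 0.05 over all genes and a fold over 2), 3 of the 10 were higher, against 14.2% of the 20818 genes tested. By adjusted p alone 8 of 10 were higher, against 19.6% of genes. In 8 of 10 every endoderm library lay above both hESC libraries, against 29.8% of genes. The median log2 fold change was 0.76 over the 10 genes and 0.04 over all genes tested.

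NID1 (ENSG00000116962, chromosome 1, 236139130 to 236228409, minus strand, 20 exons) encodes nidogen-1, which binds laminin gamma-1 and collagen IV. It was at 15.1 and 15.5 CPM in hESC and at 57.2, 40.8 and 34.6 CPM in control endoderm. All 3 endoderm libraries lay at over 2 times either hESC library, and the log2 fold change was 1.56 ± 0.24 (SE; adjusted p = 8.5e-05, edgeR). HSPG2 (ENSG00000142798, chromosome 1, 22148737 to 22263803, minus strand, 97 exons) encodes perlecan, a heparan sulfate proteoglycan that binds growth factors as well as matrix. It was at 45.7 and 58.6 CPM in hESC and at 132, 134 and 121 CPM in control endoderm. The groups stood well apart and the log2 fold change was 1.34 ± 0.19 (adjusted p = 5.5e-05, edgeR).

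COL4A1 was at 83.5 and 84.0 CPM in hESC and at 151, 209 and 170 CPM in control endoderm. Its log2 fold change was 1.11 ± 0.20 (adjusted p = 0.00032, edgeR), and without endoderm replicate 2, the highest library, it was 0.97, under 2-fold. COL4A2 moved with it, from 127 and 134 CPM to 181, 295 and 265 CPM, and its log2 fold change was 0.96 ± 0.21 (adjusted p = 0.0022, edgeR). Without endoderm replicate 1, the lowest library, this became 1.14 and passed the fold limit. For COL4A5 the hESC libraries held 24.8 and 34.1 CPM and the endoderm libraries 52.9, 53.5 and 48.0 CPM, a log2 difference of 0.84 ± 0.20 (adjusted p = 0.0039, edgeR) that became 1.08 without hESC replicate 2. COL4A6 was at 33.6 and 39.3 CPM against 47.4, 62.6 and 50.6 CPM (log2 difference 0.59 ± 0.20, adjusted p = 0.030, edgeR). None of the 4 collagen chains overlapped between these groups.

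The laminin chains differed from each other. LAMB1 (ENSG00000091136, chromosome 7, 107564244 to 107643658, minus strand, 34 exons), the beta-1 chain of both laminin-111 and laminin-511, was at 106 and 110 CPM in hESC and at 201, 159 and 149 CPM in control endoderm. Its log2 difference was 0.68 ± 0.19 (adjusted p = 0.010, edgeR). LAMA1 (ENSG00000101680, chromosome 18, 6941741 to 7117796, minus strand, 63 exons) was at 122 and 128 CPM against 160, 180 and 175 CPM, with no overlap and a log2 difference of 0.49 ± 0.18 (adjusted p = 0.040, edgeR). LAMC1 (ENSG00000135862, chromosome 1, 182992555 to 183114727, plus strand, 28 exons), the gamma-1 chain shared by most laminins, was at 155 and 165 CPM in hESC and at 190, 161 and 152 CPM in control endoderm. LAMA5 (ENSG00000130702, chromosome 20, 60883011 to 60942368, minus strand, 80 exons) was at 22.6 and 31.3 CPM against 36.5, 25.1 and 20.6 CPM. For both the libraries overlapped, with log2 differences of 0.10 ± 0.18 for LAMC1 and 0.06 ± 0.25 for LAMA5 (adjusted p = 0.69 and 0.87, edgeR). The LAMA5 difference took either sign as single libraries were left out, from -0.20 to 0.30.

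Bulk levels cannot tell more cells of a type from more RNA per cell. Mesoderm markers summed to 2.22 to 3.55 CPM in hESC and to 692 to 1048 CPM in control endoderm, with 6 of 7 called higher, 6 of 7 under 1 CPM in every hESC library and MSGN1 under 1 CPM in every endoderm library. Mesenchyme markers went from 46.9 to 57.4 CPM to 318 to 444 CPM, with 3 of 8 called higher and COL3A1, TWIST1, LUM and DCN under 1 CPM in every control endoderm library. Their part in the collagen and linker differences was not tested.

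**Figure D3:**
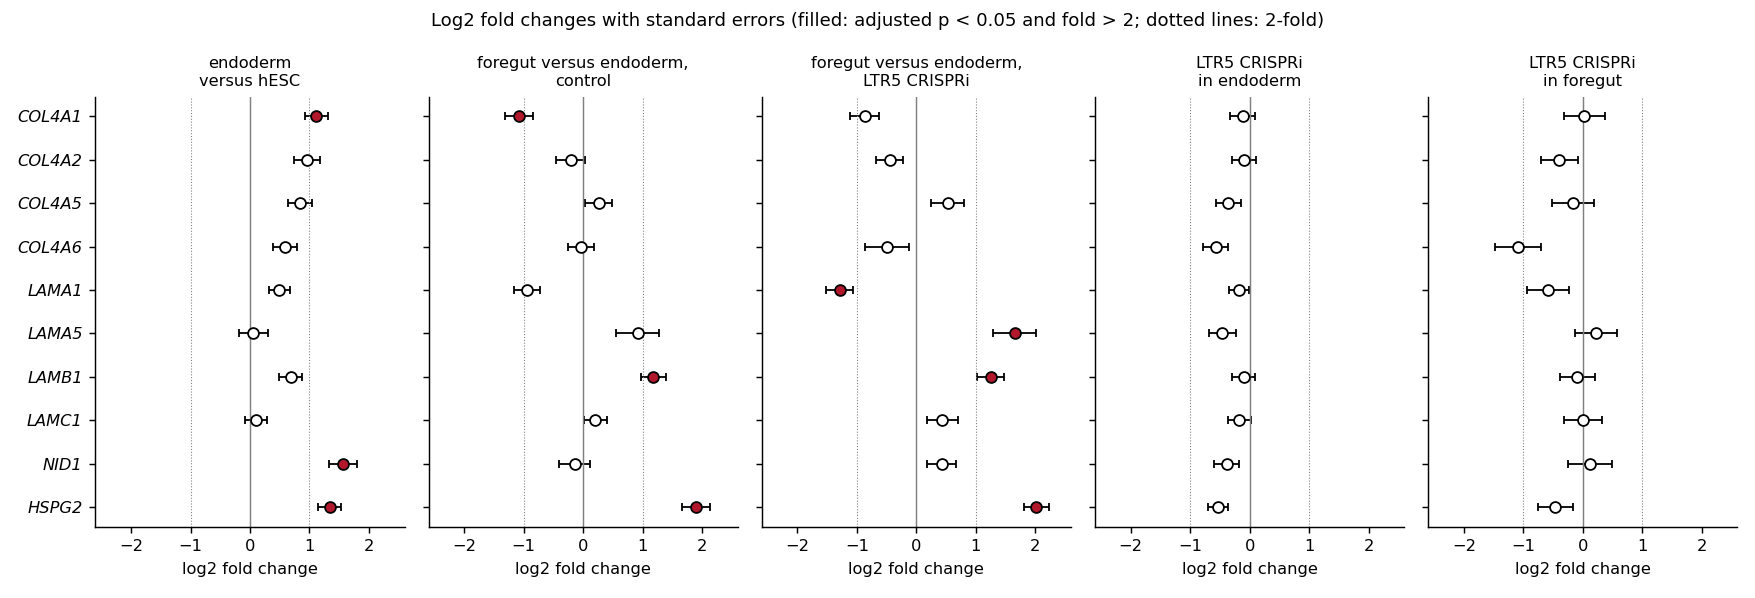
Log2 fold change with its SE (edgeR) for each of the 10 genes in 5 comparisons, endoderm against hESC, foregut against endoderm in both arms, and LTR5 CRISPRi in both tissues. Filled points passed the call, and dotted lines mark 2-fold. The endoderm against hESC values lie above 0, the LTR5 CRISPRi values of endoderm lie below 0 with none called, and the foregut values spread to both sides.

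The next comparison asked whether these genes depended on LTR5 in endoderm. None of the 10 was called with LTR5 CRISPRi by edgeR, voom or DESeq2, against 0.0343% of the 20407 genes tested, or 7 genes. Reads on LTR5_Hs integrants were 18.9, 19.2 and 17.8 CPM in control endoderm and 10.6, 12.7 and 14.1 CPM with LTR5 CRISPRi, and those on LTR5B were 5.03, 5.57 and 5.50 against 1.5, 3.36 and 3.02 CPM, lower in every CRISPRi library. Those on LTR5A went the other way, from 39.1 to 62.8 CPM to 88.7 to 110 CPM. The mean of each of the 10 genes was lower with CRISPRi, by log2 differences of -0.57 to -0.09, with a median of -0.27 against -0.02 over all genes. In the same comparison the mean was lower for 8 of 8 hESC markers (median log2 difference -0.52) and higher for 6 of 7 mesoderm markers (median 0.79), with none called, and their part in the values of the 10 genes was not tested. For COL4A1, COL4A2 and LAMB1 the sign turned when 1 library was left out. In 3 of 10 the libraries did not overlap, against 5.94% of genes. The effect was at an unadjusted p under 0.05 for 2 of 10, both lower, against 2.52% of genes.

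Those 2 were HSPG2 and COL4A6. HSPG2 was at 132, 134 and 121 CPM in control endoderm and at 90.3, 81.8 and 92.8 CPM with LTR5 CRISPRi. Each CRISPRi library lay below each control library, with a log2 difference of -0.53 ± 0.17 (unadjusted p = 0.0077, adjusted p = 0.60, edgeR). COL4A6 went from 47.4, 62.6 and 50.6 CPM to 27.2, 38.5 and 40.5 CPM, also without overlap (log2 difference -0.57 ± 0.21, unadjusted p = 0.016, adjusted p = 0.75, edgeR). COL4A5 was the remaining gene without overlap, at 27.8, 43.7 and 47.0 CPM with CRISPRi (log2 difference -0.36 ± 0.21, adjusted p = 0.99, edgeR). With LTR5 CRISPRi the others were at 121, 174 and 187 CPM for COL4A1, at 194, 240 and 248 CPM for COL4A2, and at 34.7, 36.5 and 28.7 CPM for NID1. The laminin chains were at 169, 146 and 133 CPM for LAMA1, at 22.5, 19.2 and 17.3 CPM for LAMA5, at 185, 158 and 124 CPM for LAMB1, and at 168, 160 and 111.3 CPM for LAMC1. Each of these overlapped the control libraries.

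In foregut none of the 10 was called with LTR5 CRISPRi by these tools either, against 0.165% of the 20044 genes tested, with 2 libraries a group. COL4A6 was at 53.0 and 51.7 CPM in control foregut and at 15.2 and 34.1 CPM with CRISPRi. Both CRISPRi libraries were lower but differed from each other by more than 2-fold, and the log2 difference was -1.09 ± 0.38 (unadjusted p = 0.0043, adjusted p = 0.67, edgeR). It ranged from -1.79 to -0.62 with single libraries left out. COL4A6 was the 1 gene of 10 at an unadjusted p under 0.05 there, against 1.97% of genes. LAMA1 was at 74.4 and 104 CPM against 57.0 and 62.3 CPM with CRISPRi, and COL4A2 at 189 and 238 CPM against 182 and 144 CPM, neither overlapping and neither passing an unadjusted edgeR threshold. These 3 of 10 without overlap compare with 15.7% of genes. COL4A6 was the only one of the 10 whose CRISPRi libraries lay below all controls in both tissues, as 1.27% of 17743 genes did. The 2 tissues did not differ detectably in the CRISPRi effect on any of the 10: the interaction called none (edgeR), with none at an unadjusted p under 0.05 (against 3.38% of genes in the higher and 4.85% in the lower direction) and differences from -0.53 to 0.67, while it called 0.194% of all genes. For COL4A6 the interaction was -0.53 ± 0.44 (adjusted p = 0.88, edgeR). LTR5 reads in foregut separated the groups less evenly: LTR5_Hs was at 9.10 and 8.75 CPM in the controls and at 4.43 and 10.9 CPM with CRISPRi, and LTR5B at 12.4 and 9.29 against 5.59 and 4.28 CPM. With LTR5 CRISPRi in foregut the mean was higher for 5 of 5 endothelium markers tested (median log2 difference 0.79), with none called. Of 8 mesenchyme markers 1 was called higher. AFP was called lower, but the control libraries themselves differed widely, at 4.82 and 187 CPM. The part of these markers in the values of the 10 genes was not tested.

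Of 1288 annotated integrants with an LTR5 part, 1 lies inside one of the 10 genes. It is an LTR5_Hs of COL4A6, in an intron, at chrX:107620097-107620623 of GRCh37, and it had 0 reads in all 12 libraries. Among 22659 genes, 1.78% hold such an integrant. The same integrant is the nearest to COL4A5, at 62.4 kb. For the others the nearest was 324 kb (COL4A2) to 5606 kb (LAMC1) away, HSPG2 being at 1787 kb, against a median of 805 kb over all genes. A part of these integrants in the COL4A6, COL4A5 or HSPG2 values was not tested.

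The step from endoderm to foregut moved single genes in opposite directions. HSPG2 and LAMB1 rose in both the control and the CRISPRi arm, which share no library. COL4A1 fell in the control arm, and in the CRISPRi arm LAMA1 fell and LAMA5 rose. In the control arm 2 of 10 were called higher, against 14.1% of genes, and 1 lower, against 15%. In the CRISPRi arm 3 were called higher, against 12.9%, and 1 lower, against 13.4%.

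HSPG2 stood at 361 and 599 CPM in control foregut, above the 121 to 134 CPM of control endoderm, with a log2 fold change of 1.89 ± 0.23 (adjusted p = 0.00036, edgeR). In the CRISPRi arm it was at 391 and 308 CPM in foregut against 81.8 to 92.8 CPM in endoderm, a log2 fold change of 2.02 ± 0.21 (adjusted p = 0.00048, edgeR). LAMB1 stood at 428.0 and 339 CPM in control foregut and at 349 and 374 CPM in CRISPRi foregut. No endoderm library exceeded 201 CPM, and the log2 fold changes were 1.18 ± 0.21 (adjusted p = 0.0026, edgeR) in the control arm and 1.25 ± 0.23 (adjusted p = 0.0060, edgeR) in the CRISPRi arm. Without control foregut replicate 1 the LAMB1 value was 0.98, under 2-fold.

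COL4A1 was at 95.3 and 72.6 CPM in control foregut, below all endoderm controls, with a log2 fold change of -1.08 ± 0.23 (adjusted p = 0.0069, edgeR). This was -0.90 without endoderm replicate 2 and -0.83 without foregut replicate 2, each under 2-fold. In the CRISPRi arm it was at 81.9 and 89.6 CPM, below the endoderm values again (log2 difference -0.87 ± 0.25, adjusted p = 0.034, edgeR). The partner chain COL4A2 was at 189 and 238 CPM in control foregut, within the range of control endoderm (log2 difference -0.21 ± 0.25, adjusted p = 0.51, edgeR). With CRISPRi, COL4A2 was at 182 and 144 CPM in foregut, below the 194 to 248 CPM of endoderm without overlap (log2 difference -0.45 ± 0.23, adjusted p = 0.16, edgeR).

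LAMA1 was at 74.4 and 104 CPM in control foregut against 160 to 180 CPM in control endoderm, a log2 difference of -0.95 ± 0.22 (adjusted p = 0.0097, edgeR), just under 2-fold. Without foregut replicate 2 it was -1.14 and was called. In the CRISPRi arm it fell from 133 to 169 CPM to 57.0 and 62.3 CPM, a log2 fold change of -1.29 ± 0.22 (adjusted p = 0.0043, edgeR). LAMA5 differed by more than 2-fold between same-group foregut libraries. It was at 32.8 and 70.7 CPM in control foregut (log2 difference 0.92 ± 0.36, adjusted p = 0.078, edgeR), and at 85.2 and 35.9 CPM in CRISPRi foregut (1.65 ± 0.36, adjusted p = 0.012, edgeR). Without control foregut replicate 1 the first became 1.35 and was called, and without CRISPRi foregut replicate 1 the other became 0.90 and was not.

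COL4A5 (72.9 and 50.8 CPM in control foregut, 48.5 and 62.5 with CRISPRi), COL4A6, LAMC1 (199 and 186, 170 and 218 CPM) and NID1 (37.2 and 43.1, 37.4 and 50.3 CPM) were called in neither arm, with log2 differences of -0.14 to 0.26 in the control arm and -0.49 to 0.53 in the CRISPRi arm. Leaving out single libraries added calls to the CRISPRi arm: COL4A1 was -1.03 without endoderm CRISPRi replicate 1 and -1.01 without foregut CRISPRi replicate 2, and COL4A6 was -1.25 without the latter.

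Set directly against hESC, with which it shares the foregut and hESC libraries of the comparisons above, control foregut had 4 of 10 genes called higher, against 16% of 21191 genes, and none lower, against 16.6%. HSPG2 had a log2 fold change of 3.20 ± 0.32 (adjusted p = 0.00036, edgeR) and LAMB1 of 1.83 ± 0.23 (adjusted p = 0.00090, edgeR). NID1 followed at 1.39 ± 0.26 (adjusted p = 0.0051, edgeR) and COL4A5 at 1.07 ± 0.30 (adjusted p = 0.027, edgeR). The COL4A5 call was lost without hESC replicate 1 (0.86) or foregut replicate 1 (0.80), and LAMA5 was called without the latter (1.40). COL4A1 was near its hESC level, with a log2 difference of 0.00 ± 0.24.

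Per kilobase, the order of mean levels in control foregut was led by LAMB1 at 67.9 ± 11.1 CPM per kb (SD, n = 2), followed by HSPG2 at 33.5 ± 11.7, COL4A2 at 33.1 ± 5.4 and LAMC1 at 24.3 ± 1.1, of which HSPG2 was separated by its SD from neither COL4A2 nor LAMC1. In control endoderm it was COL4A2 at 38.3 ± 9.1 (SD, n = 3), LAMB1 at 29.99 ± 4.9, COL4A1 at 27.1 ± 4.5, LAMC1 at 21.1 ± 2.5 and LAMA1 at 17.8 ± 1.1, each within the SDs of its neighbours, so that this order is not resolved.

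The foregut libraries also differed in other cell type markers. CDH5, the cadherin of endothelium, was at 29.9 and 31.7 CPM in control foregut and at most 0.25 CPM in hESC and endoderm, and 4 of the 5 endothelium markers tested were called higher. KDR, the most abundant of them in endoderm, was called lower, from 67.3 to 151 CPM to 22.02 and 35.3 CPM. As a sum the endothelium markers ran from 68.9 to 152 CPM in control endoderm and from 81.4 to 111.2 CPM in control foregut, with CDH5, TEK, ERG and TIE1 under 1 CPM in every endoderm library. Mesenchyme markers summed to 472 to 482 CPM in control foregut, with 4 of 8 called higher, and extraembryonic endoderm markers to 2787 to 3244 CPM against 536 to 735 CPM, with 7 of 8 called higher. The latter sum does not identify extraembryonic cells. It was led by TTR, at 1540 and 1954 CPM in control foregut, and it holds SPARC, also a basement membrane gene, which was at 139 and 145 CPM in hESC. With CRISPRi, mesenchyme markers summed to 588 to 640 CPM in foregut against 326 to 397 CPM in endoderm, endothelium markers to 142 to 188 against 44.9 to 107 CPM, and extraembryonic endoderm markers to 2476 to 2987 against 847 to 1050 CPM. In that arm 4 of 8, 4 of 5 and 5 of 7 were called higher. Their part in the HSPG2, LAMB1 and LAMA5 values was not tested.

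Because subunits are used together, ratios within a library were also compared, which do not depend on library scaling. LAMA1 to LAMA5, the alpha chains of laminin-111 and laminin-511, had a per-kilobase ratio of 6.41 and 4.86 in hESC, 5.20, 8.5 and 10.1 in control endoderm and 8.91, 9.02 and 9.07 in CRISPRi endoderm. In foregut it was 2.68 and 1.75 in the controls and 0.793 and 2.05 with CRISPRi. Every foregut library lay below every endoderm library, and in 1 CRISPRi foregut library LAMA5 exceeded LAMA1. The difference in mean log2 ratio was -1.82 in the control arm and -2.82 in the CRISPRi arm (two-sided exact permutation p = 0.1 in each, the smallest that 3 against 2 libraries can give), so neither could reach 0.05. Endoderm against hESC gave 0.45 (exact permutation p = 0.3).

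COL4A1 to COL4A2 had a per-kilobase ratio of 0.649 and 0.619 in hESC and 0.823, 0.701 and 0.634 in control endoderm. It was 0.617, 0.713 and 0.743 in CRISPRi endoderm, 0.498 and 0.301 in control foregut, and 0.443 and 0.615 in CRISPRi foregut. COL4A1 was thus below COL4A2 per kilobase in all 12 libraries. The foregut ratio was lower than that of endoderm by log2 differences of -0.89 and -0.40 in the control and CRISPRi arms (exact permutation p = 0.1 in each, again the smallest possible), and endoderm against hESC gave 0.17 (exact permutation p = 0.3). The 6 differences of each ratio were computed, and with these numbers of libraries no adjusted value can pass 0.05.

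**Figure D4:**
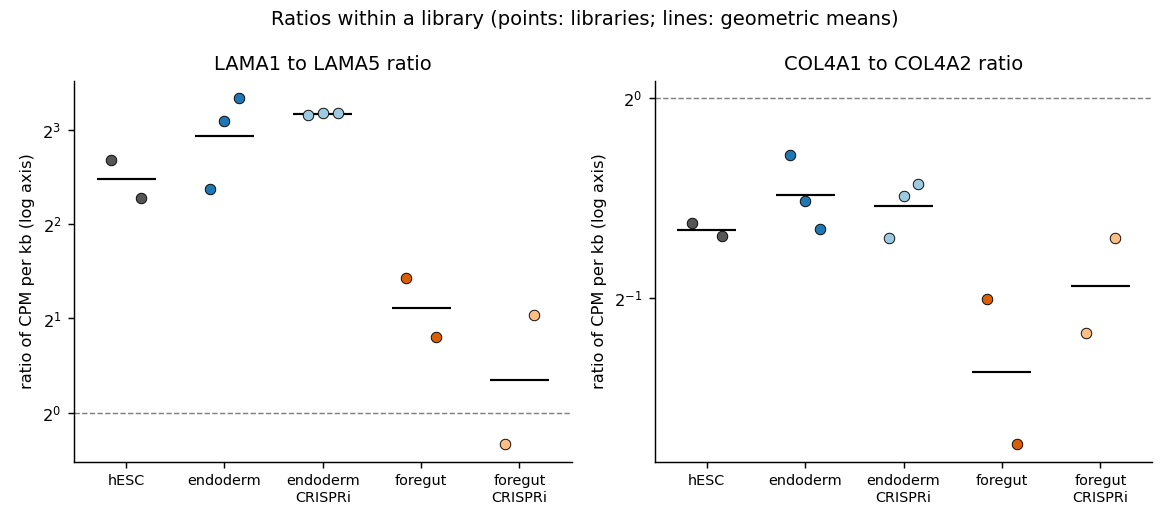
Per-kilobase ratios of LAMA1 to LAMA5 and of COL4A1 to COL4A2 within each bulk library, on a log axis, by group, with points for libraries and lines for geometric means. The 4 foregut libraries sit below the 6 endoderm libraries in both ratios, between 0.793 and 2.68 for the laminins and between 0.301 and 0.615 for the collagens.

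The other genes of the pathway were read from lists of 26 further basement membrane genes, 19 genes of collagen IV assembly, 13 receptors and 10 genes of matrix turnover. Of all genes tested, 14.2% were called higher and 11.8% lower in endoderm against hESC. In foregut against endoderm the shares were 14.1% and 15% in the control arm and 12.9% and 13.4% in the CRISPRi arm. In endoderm against hESC, 7 of the 19 assembly genes were called higher and none lower (edgeR), with a median log2 difference of 0.77 against 0.04 over all genes. By adjusted p alone 11 were higher, against 19.6% of genes. P3H2, a prolyl 3-hydroxylase that acts on collagen IV, went from 33.3 to 48.6 CPM to 636 to 716 CPM (log2 fold change 4.08 ± 0.23, adjusted p = 3.9e-09, edgeR). P4HA1 and P4HA2, prolyl 4-hydroxylases that stabilise the triple helix, and the lysyl hydroxylase PLOD2 rose by 3.81 ± 0.37, 4.69 ± 0.32 and 4.30 ± 0.40. In foregut against endoderm none of the 19 was called higher and 5 were lower in the control arm (edgeR), with a median of -0.42 against -0.09 over all genes. There P3H2 fell by 4.50 ± 0.22 on the log2 scale to 28.2 and 31.6 CPM, and P4HA1, PLOD2 and SEC23A, a coat protein of the vesicles that carry collagen out of the endoplasmic reticulum, fell by 2.74, 2.64 and 2.54. In the CRISPRi arm 1 was higher and 6 lower.

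Of the other basement membrane genes, 7 of 25 tested were called higher and 5 lower in endoderm against hESC, with a median log2 difference of 0.32, where 14.2% of all genes were called higher and 11.8% lower. NTN4, a netrin that binds laminin, went from 0.12 and 0.56 CPM to 33.2 to 66.1 CPM, and FREM1 from 1.43 and 1.77 CPM to 53.2 to 108 CPM (log2 fold changes 7.11 ± 0.48 and 5.80 ± 0.36). LAMA2, the alpha-2 laminin chain of muscle, rose by 2.53 ± 0.31, while COL4A4 fell by 2.44 ± 0.67 at levels near 1 CPM. In foregut against endoderm 14 of 26 were called higher and 4 lower in the control arm (median 2.03), and 12 of 25 and 6 in the CRISPRi arm. LAMB3, the beta chain of the epithelial laminin-332, was at 15.2 and 21.1 CPM in control foregut and at most 0.10 CPM in control endoderm, and SMOC1 was at 81.3 and 99.6 CPM against at most 0.41 CPM. NPNT, nephronectin, was at 7.98 and 8.80 CPM in control foregut. COL15A1 was at 4.57 and 7.57 CPM in control foregut but at 0.47 and 0.61 CPM in CRISPRi foregut, where it was not called against endoderm (adjusted p = 0.17, edgeR).

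Among the receptors, in endoderm against hESC 4 of 13 were called lower and none higher (edgeR), with a median log2 difference of -0.24, against 11.8% of all genes called lower. By adjusted p alone 2 were higher, against 19.6% of genes. ITGA2, SDC1, ITGA6 and ITGB4 fell by 2.86, 2.64, 1.44 and 1.01 on the log2 scale, ITGB4 being at 1.81 and 3.03 CPM in hESC. ITGA6, an alpha subunit of laminin-binding integrins, was at 93.6 and 110 CPM in hESC and at 35.1 to 39.2 CPM in control endoderm. ITGB1, another integrin subunit of the list, went the other way without a call, from 184 and 198 CPM to 328 to 436 CPM. In foregut against endoderm 5 receptors were called higher and 1 lower in the control arm (median 0.60) and 4 and 1 in the CRISPRi arm. BCAM, a receptor for laminin alpha-5, went from 17.4 to 26.1 CPM to 600 and 1159 CPM (log2 fold change 5.42 ± 0.33, adjusted p = 1.0e-05, edgeR). ITGA3 and ITGB4 rose by 2.54 and 3.22, and ITGA2, at under 5 CPM, by 2.40. ITGB1 again went the other way, to 92.1 and 97.2 CPM in control foregut. In the CRISPRi arm it fell by 2.21 ± 0.23 (adjusted p = 0.00046, edgeR).

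Of the turnover genes 5 of 10 were called higher and 1 lower in endoderm against hESC (median 1.12), with TIMP3, an inhibitor held in the matrix, rising from 3.91 and 6.01 CPM to 79.8 to 102 CPM (4.29 ± 0.27), and MMP9, MMP14 and TIMP1 by 3.15, 1.97 and 1.54. In foregut against endoderm 3 were higher and 2 lower in the control arm (median 0.39), and 2 and 2 in the CRISPRi arm. In the control arm HPSE, which cuts heparan sulfate, and TIMP2 rose by 2.48 and 1.72, and ADAMTS1 and MMP9 fell by 2.93 and 2.14. HPSE was not called in the CRISPRi arm (log2 difference 0.77 ± 0.91, adjusted p = 0.53, edgeR). LTR5 CRISPRi called no gene of these 4 lists in either tissue (edgeR). In endoderm an unadjusted p under 0.05 was reached by 3 higher and 2 lower of 22 other basement membrane genes. It was also reached there by 2 lower assembly genes, 2 lower receptors and 1 higher turnover gene, against 2.52% of all genes in the lower direction. In foregut it was reached by 1 higher and 2 lower of 26, by 0 assembly genes, 1 lower receptor and 2 lower turnover genes, against 1.97% of all genes in the lower direction. No share of all genes was set against the higher ones. The interaction between tissues called 1 gene of these lists, LAMA2, lower (adjusted p = 0.028, edgeR), at 0.78 and 0.95 CPM in control foregut and at 0 in both CRISPRi foregut libraries.

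For likeness of pattern, the 14012 genes that averaged 1 CPM or more were ranked by Pearson correlation of log2 CPM with COL4A1 and with LAMA1 over the 12 bulk libraries. ACSM4 (0.979), SLC6A20 (0.967) and PLCXD3 (0.955) were the most like COL4A1. FAHD2A (0.982) and RBM23 (0.980) were among the 3 most like LAMA1. The points fall into the tissues and share their libraries, so these values describe the same steps between tissues.

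The gastruloid RNA allowed the 10 genes to be placed in cell types, in 1 preparation and therefore with no test. Of 3646 nuclei 3422 were kept, with a median of 16302 unique molecules (UMIs), and they were clustered without the 10 genes and the other matrix genes. Of 9 clusters 8 held at least 50 nuclei. Marker genes named an axial mesoderm-like cluster (496 nuclei), which is the notochord lineage, a neuromesodermal progenitor-like cluster (418), a presomitic mesoderm-like cluster (495), a segmenting mesoderm-like cluster (342) and a paraxial mesoderm-like cluster (566). A cluster with ERG and RUNX1T1 among its leading genes (574), one led by APOLD1 and CORIN (117) and one of low depth with a median of 8000 UMIs (380) were left unnamed. Levels are CPM of the UMIs summed over a cluster with exact Poisson 95% intervals, which cover counting error only. Nuclear counts include introns, so genes are compared between clusters and not with each other.

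The laminin-511 chains were highest in the axial mesoderm-like cluster. LAMC1 was at 517 CPM there (504 to 531) and at 97.5 to 147 CPM in the other 7 clusters, with a ratio of highest to lowest of 5.31 (4.63 to 6.10). LAMB1 was at 365 CPM (354 to 377) there, next at 217 CPM (208 to 227) in the paraxial-like cluster and lowest at 87.5 CPM (80.9 to 94.5) in the neuromesodermal progenitor-like one. LAMA5 was at 56.5 CPM (52.2 to 61.2) there, next at 30.3 CPM (26.8 to 34.1) in the ERG and RUNX1T1 cluster and lowest at 16.2 CPM (13.6 to 19.0) in the presomitic-like cluster. LAMA1 did not share this place: it was highest at 202 CPM (192 to 214) in the segmenting-like cluster, next at 154 CPM (146 to 163) in the paraxial-like cluster, and at 112 CPM (106 to 119) in the axial one.

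The axial mesoderm-like cluster held 26 of the 70 nuclei that Scrublet marked as doublets, and without them the LAMC1 ratio was 5.63. Thinned to 5000 UMIs a nucleus, over the 3197 nuclei deep enough, 90.4% of the axial mesoderm-like nuclei had a LAMC1 UMI (87.4 to 92.9, exact binomial) against 34.5% to 49.6% of the nuclei of the other clusters (unthinned, 97.2% against 46.3% to 87.2%). Free RNA was gauged from CHRD, a notochord gene, which had a UMI in 88.3% of thinned axial mesoderm-like nuclei and in 2.91% to 6.39% elsewhere. The LAMC1 shares outside the axial cluster were thus above the CHRD share in each cluster.

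The chains of each head-to-head pair were highest in the same clusters. COL4A5 and COL4A6 were both highest in the paraxial-like cluster, at 489 CPM (474 to 503) and 219 CPM (210 to 229), and next in the ERG and RUNX1T1 cluster, at 388 and 188 CPM. COL4A6 was lowest in the axial mesoderm-like cluster, at 70.5 CPM (65.6 to 75.6), and COL4A5 in the low-depth cluster, at 174 CPM, with 236 CPM in the axial one. COL4A1 and COL4A2 were highest in the APOLD1 and CORIN cluster, at 226 and 380 CPM, and next in the ERG and RUNX1T1 cluster, at 214 and 354 CPM, with intervals that overlapped between these clusters for both genes. Both were lowest in the neuromesodermal progenitor-like cluster, at 79.0 and 182 CPM.

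In single nuclei thinned to 5000 UMIs, 71.6% of those with a COL4A1 UMI also had a COL4A2 UMI, against 61.9% of those without. For COL4A5 and COL4A6 the shares were 49.8% and 37.3%, and for LAMA1 and LAMA5 13.4% and 12.0%. These shares pool clusters that differ in level. Within clusters the COL4A2 share was higher with than without a COL4A1 UMI in 8 of 8, and the COL4A6 share higher with than without a COL4A5 UMI in 7 of 8, the exception being the neuromesodermal progenitor-like cluster, at 54.2% and 56.3%.

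The linkers varied least. NID1 ranged from 41.7 to 59.7 CPM and HSPG2 from 11.9 to 20.9 CPM, a ratio of 1.43 and 1.76, and for each the intervals of the highest clusters overlapped. Summed over the 10 genes, the axial mesoderm-like cluster was highest at 1820 CPM, followed by the paraxial-like cluster at 1734 CPM, and the low-depth and presomitic-like clusters were lowest at 1128 (1092 to 1165) and 1129 (1107 to 1151) CPM, which overlap, a ratio of 1.61 (1.54 to 1.69). Most of the other matrix genes found, most assembly genes among them, were also highest in the axial mesoderm-like cluster. An axial peak was thus not particular to the laminin-511 chains. Receptors highest there were BCAM, DAG1, DDR1, ITGB1, SDC1 and ITGA6, the last at 112 CPM against 10.5 CPM in the presomitic-like cluster. ITGA1, ITGA3, ITGA7, DDR2 and SDC4 were highest elsewhere, as were the assembly genes P3H2, P4HA1, PLOD2, SEC23A and TMEM38B. P3H2 was highest in the paraxial-like cluster, at 155 CPM, and lowest in the axial one, at 27.7 CPM.

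**Figure D5:**
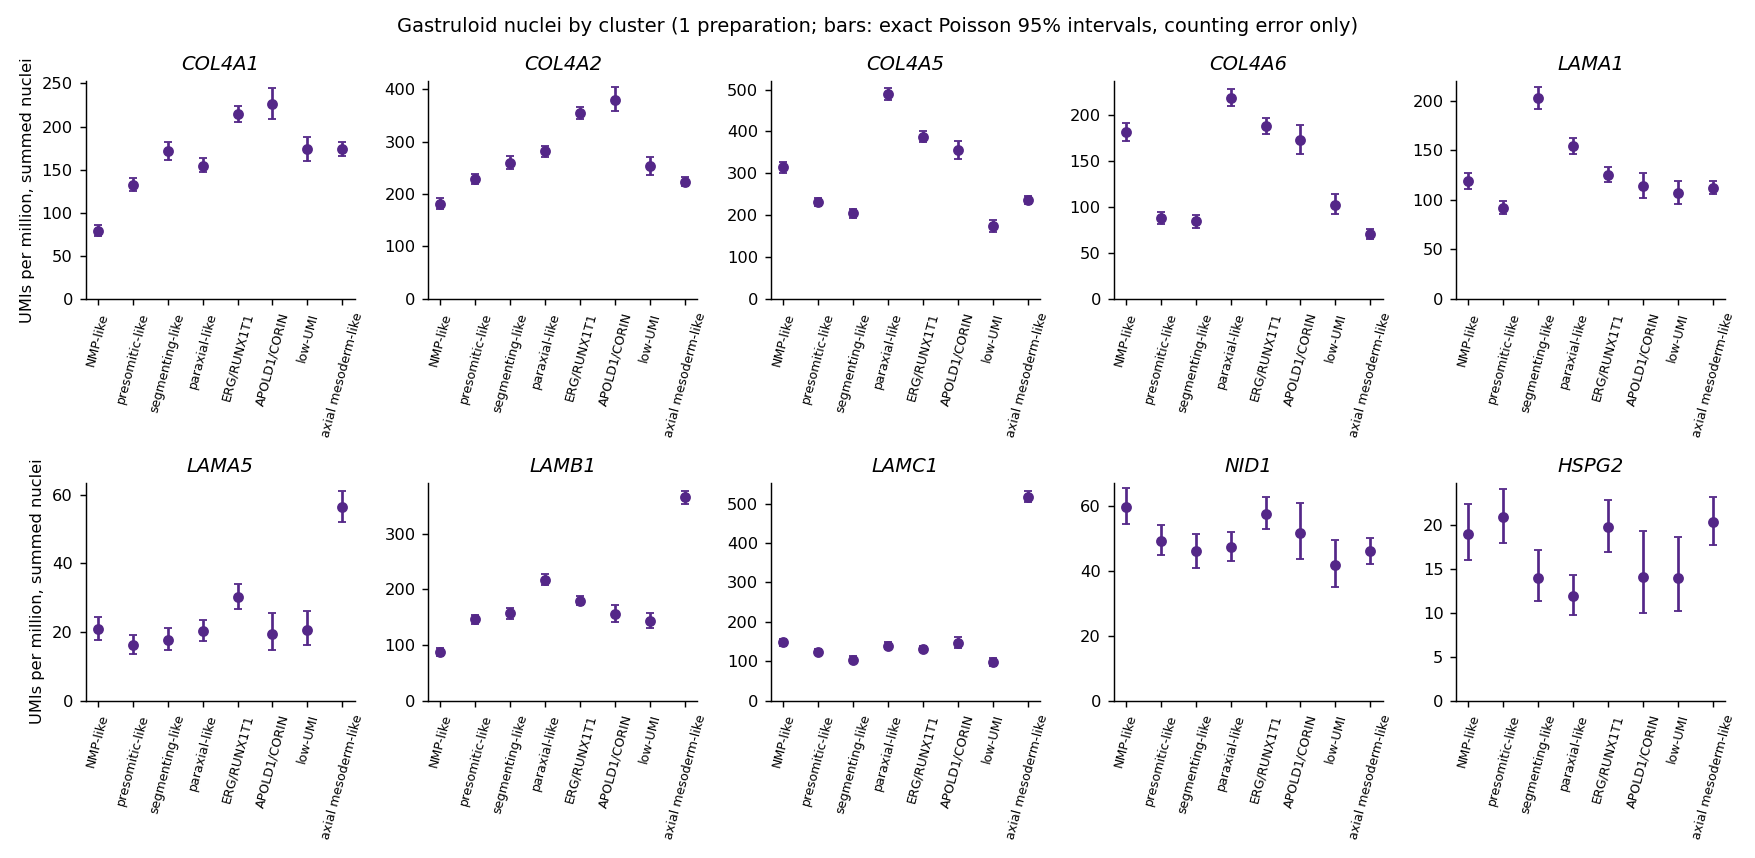
CPM of UMIs of each of the 10 genes in the 8 gastruloid clusters of at least 50 nuclei, with exact Poisson 95% intervals that cover counting error only. LAMC1, LAMB1 and LAMA5 peak in the axial mesoderm-like cluster, COL4A5 and COL4A6 in the paraxial-like one, and LAMA1 in the segmenting-like one.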

How the data were processed

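The authors sequenced stranded mRNA libraries (TruSeq), aligned reads to hg19 with HISAT2 and counted uniquely mapped reads over genes and transposable elements with featureCounts; the deposited values are raw counts, and the strand setting is not given in the sources used here. The gastruloid table holds UMI counts per nucleus that the authors made with Cell Ranger on hg38, and the ATAC file their merged peaks. Members and lists were chosen with earlier results of these data known.

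Genes with at least 3 reads in at least 1 library of a comparison were fitted with edgeR 4.0.16 (TMM, quasi-likelihood F test, only the groups compared, the 4 groups for the interaction), with Benjamini-Hochberg adjustment over all genes tested and a call at adjusted p under 0.05 and a fold over 2. CPM are TMM-scaled, except for LTR5 reads, which are CPM of gene reads without TMM. The script was tested on simulated data. Symbols came from a gene annotation, which named 55665 of 63677 identifiers. Voom (limma 3.58.1), DESeq2 1.42.0, other filters, a replicate block and each library left out were alternatives. Same-group libraries differed by more than sampling noise (chi-square per degree of freedom 8.63 to 163).

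Nuclei were required to have 1000 UMIs, 200 genes and no more than 25% mitochondrial UMIs, and were scaled to 10000, reduced to 30 components of 2000 variable genes and clustered by Leiden at resolution 0.5 (scanpy 1.11.5). Doublets called by Scrublet (2.05%) were kept in the main result. Named genes were the 10 members, at most the 4 called genes of each list and comparison with the largest change and a mean of at least 1 CPM, marker genes, and the 3 genes most like COL4A1 and LAMA1, of which 1, like 1 leading gene of a cluster, is not reported here.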

Additional observations from a re-analysis of the deposited data

How the results depend on the processing

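Of 676 refits of the log2 fold changes of the 10 genes, 630 kept the direction and the side of the threshold, 7 lost it, 9 gained it and 30 turned in sign. By adjusted p alone the members called in endoderm against hESC went from 3 to 8. With single libraries left out this count ran from 2 to 4, that of foregut against endoderm from 2 to 3 in the control and 3 to 6 in the CRISPRi arm, that of foregut against hESC from 3 to 4, and it stayed at 0 to 0 for LTR5 CRISPRi in either tissue and for the interaction. Small differences turned: LAMC1 in foregut CRISPRi to -0.010 (voom), -0.0066 (replicate block) and -0.0067 (crossed numbers), COL4A6 in foregut against control endoderm to 0.034 (DESeq2), and COL4A1 in foregut against hESC to -0.016 (voom) and -0.010 (replicate block). Left-out libraries turned LAMA5 in endoderm against hESC (-0.20 to 0.30); in endoderm CRISPRi LAMB1 (-0.22 to 0.053), COL4A1 (-0.23 to 0.063) and COL4A2 (-0.26 to 0.043); in foregut CRISPRi LAMA5 (-0.53 to 0.88), LAMB1 (-0.25 to 0.093), COL4A5 (-0.40 to 0.13), LAMC1 (-0.19 to 0.18), COL4A1 (-0.16 to 0.24) and NID1 (-0.11 to 0.33); in foregut against control endoderm NID1 (-0.29 to 0.13), COL4A6 (-0.072 to 0.13) and COL4A5 (-0.038 to 0.57); and COL4A1 in foregut against hESC (-0.20 to 0.23). A lone library was assumed to vary like the others. The cause was not tested.

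Same-numbered libraries correlated at -0.12 to 0.12. In groups of 2 libraries the matched and crossed values mirror each other, so this check cannot settle whether the numbers pair libraries. Replicate 1 had the higher mitochondrial share in hESC and in both foregut groups, but not the highest in either endoderm group, and its part was not tested. The replicate block changed no count of members called. Numbers crossed in foregut CRISPRi, chosen after seeing the data, called 1 member in place of 0. The ratio LAMA1 to LAMA5 in endoderm against hESC was 0.25 and COL4A1 to COL4A2 0.26 with the block, and 0.25 to 0.73 and 0.07 to 0.26 with libraries left out. All genes called ranged over the settings from 1 to 186 around 7 for endoderm CRISPRi, from 11 to 209 around 33 for foregut CRISPRi, and from 0 to 229 around 44 for the interaction. In the gastruloids the summed ratio of 1.61 became 2.21 at resolution 1.0, 1.92 with 15 components and 1.71 without doublets, and the LAMC1 ratio of 5.31 became 6.39 at resolution 1.0, an alternative chosen after seeing the data. With 2 or 3 libraries a group, differences under 2-fold are at the limit of these data.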
